A study of Mus musculus with 29 samples.

Results

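The DNA methylation of 10 genes of the Nrf2 antioxidant response was described across adult mouse lung: Nfe2l2, Keap1, Hmox1, Nqo1, Gclc, Gclm, Gsr, Txnrd1, Srxn1 and Gstp1. The genes were chosen by name, as the windows of the methylation table assigned to 1 of these 10 symbols. They held 84 of the 260686 windows of the table, and all 84 were tested among 259167 windows with enough values. A window is a run of neighbouring CpG sites, the places in DNA where a cytosine is followed by a guanine and where most methylation sits, and its value is the percentage of methylated calls (%DNAm) in 1 library. The windows were defined by the study as 100 CpGs, and on the GRCm38 sequence 75 of the 84 held exactly 50 CpG dinucleotides and none held more than 56, which is 100 cytosines when both strands are counted. They ran from 322 to 6747 bp with a median of 3430 bp, so a short window marks CpG-dense DNA. Windows are numbered here from the start of each gene in the direction of transcription, and a few contain sequence before the gene.

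Nfe2l2 encodes Nrf2, a transcription factor that switches on detoxifying and antioxidant enzymes. In unstressed cells Keap1 binds Nrf2 and hands it to a ubiquitin ligase for degradation, and oxidants or reactive compounds modify Keap1 so that Nrf2 accumulates and binds antioxidant response elements with a small Maf partner. The targets make glutathione (Gclc and Gclm, the catalytic and modifier subunits of the rate-limiting ligase), recycle it (Gsr), conjugate it (Gstp1), renew thioredoxin and peroxiredoxins (Txnrd1 and Srxn1), break down haem (Hmox1) and reduce quinones (Nqo1). The airway lining and lung macrophages rely on the system during exposure to inhaled oxidants.

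Whole-genome enzymatic methyl sequencing was carried out on lung homogenate from BALB/c female offspring at 13 weeks of age, in 29 libraries. Sham offspring (n = 7) came from dams given intranasal saline and were themselves given nebulised vehicle. Sham-OVA offspring (n = 7) came from the same kind of dam and were sensitised to ovalbumin (OVA) with an aluminium adjuvant and challenged with aerosolised OVA, a model of allergic airway disease (AAD). PM (n = 7) and PM-OVA (n = 8) offspring were their counterparts from dams given intranasal roadside PM2.5, fine airborne particulate matter collected in Hong Kong, before mating, through gestation and up to weaning. No offspring was exposed to particulates directly. All animals went through the lung function test with methacholine before the lungs were taken. The labels do not say which animals were littermates, so p-values measure the spread between animals and may understate the spread between dams.

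Promoter sequences, 250 bases before to 50 after each annotated start, were found for 7 of the 10 genes (RefSeq, GRCm38.p6). Hmox1, Gclc and Gsr had no entry in the promoter set used, although each has an annotated start in the gene models. The antioxidant response element core was searched on both strands as TGACNNNGC and TGAGNNNGC, which were chosen with the sequences in view and cannot overlap at the same position. Either form was present in 9128 of 32851 promoters (27.8%) and TGACNNNGC alone in 12.4%. Of the 9 promoters of the 7 genes, 5 held either form and 4 held TGACNNNGC, and Keap1 and Nqo1 had no match in these 300 bases. The matches are printed in capitals with the flanking bases, on the strand of the gene, because they show which methylation window covers a candidate element.
Nfe2l2, chr2:75704895-75704903, window 1: tcagcccaccTGACTCCGCcatgccccgga
Srxn1, chr2:152105479-152105487, window 1: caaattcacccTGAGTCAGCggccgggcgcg
Srxn1, chr2:152105552-152105560, window 2: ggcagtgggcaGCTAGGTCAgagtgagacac
Gclm, chr3:122245423-122245431, window 1: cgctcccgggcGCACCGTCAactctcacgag
Txnrd1, chr10:82859114-82859122, window 7: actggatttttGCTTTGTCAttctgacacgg
Gstp1, chr19:4037978-4037986, window 1: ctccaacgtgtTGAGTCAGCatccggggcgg
The forms in Srxn1 window 1 and in Gstp1 have the same 9 letters, TGAGTCAGC. The printed Nfe2l2, Gclm and Srxn1 window 2 matches lay in windows close to 0 %DNAm, and those in Srxn1 window 1, Txnrd1 window 7 and Gstp1 window 1 lay in windows of intermediate level. A further match in Srxn1 window 1 and another in Gstp1 window 1, both TGAGNNNGC, are not printed. A CpG within the match was present in the Nfe2l2 and Gclm matches and in the 2 that are not printed, so such matches lay in windows of both kinds.

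The promoters of Gclm and Nqo1 are shown whole, on the strand of the gene and with each CpG in capitals, because they differ widely in CpG density. The Gclm promoter held 48 CpGs in 300 bases and lay in the window with the lowest Sham mean of the 84, and the Nqo1 promoter held 5 and lay in a window of intermediate level. The median over all promoters was 7.
Gclm, chr3:122245307-122245606, plus strand: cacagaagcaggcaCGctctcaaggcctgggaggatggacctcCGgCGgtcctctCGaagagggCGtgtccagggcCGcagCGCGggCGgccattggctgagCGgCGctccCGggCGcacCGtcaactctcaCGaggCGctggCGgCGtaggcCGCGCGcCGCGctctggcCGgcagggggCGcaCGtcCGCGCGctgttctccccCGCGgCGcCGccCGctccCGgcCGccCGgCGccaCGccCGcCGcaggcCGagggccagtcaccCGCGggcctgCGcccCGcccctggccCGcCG
Nqo1, chr8:107403156-107403455, minus strand: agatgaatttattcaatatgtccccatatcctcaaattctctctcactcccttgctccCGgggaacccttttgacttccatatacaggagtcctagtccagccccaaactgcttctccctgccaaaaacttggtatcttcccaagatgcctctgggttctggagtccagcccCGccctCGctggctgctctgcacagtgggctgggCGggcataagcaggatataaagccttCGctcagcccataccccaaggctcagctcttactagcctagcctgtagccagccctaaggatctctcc
Another stretch is shown because its window had the largest mean of the 2 OVA differences in absolute size. It is the 300 bases of Keap1 window 4 with the most CpGs, 19 of the 50 in the window, again with each CpG in capitals.
Keap1, chr9:21237127-21237426, minus strand: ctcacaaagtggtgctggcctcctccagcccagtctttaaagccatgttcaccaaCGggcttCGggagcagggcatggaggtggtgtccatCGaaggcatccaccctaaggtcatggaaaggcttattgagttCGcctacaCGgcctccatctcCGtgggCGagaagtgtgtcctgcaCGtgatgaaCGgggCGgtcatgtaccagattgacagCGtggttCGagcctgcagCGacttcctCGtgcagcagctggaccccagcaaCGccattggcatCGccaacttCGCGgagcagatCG

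The genes fell into CpG-dense starts that carried almost no methylation and bodies that were mostly methylated. A Sham mean under 1% was found in 10 windows, all short and dense in CpGs. They lay at or just inside the start of Nfe2l2 (windows 1 and 2), Gclm (1 and 2), Keap1 (2 and 3), Srxn1 (2), Gsr (2) and Gclc (2), and at an internal start of Txnrd1 (8). Their length was 322 to 1246 bp, their density 40.1 to 155 CpGs per kb, and their group means 0.00794% to 0.928%. The highest value of any library in them was 2.98%. At the other end, 58 windows had a Sham mean of 60% or more, and none of these had more than 25.4 CpGs per kb. The remaining 16 windows lay between 1% and 60% and were mostly flanks of the unmethylated stretches.

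**Figure D1:**
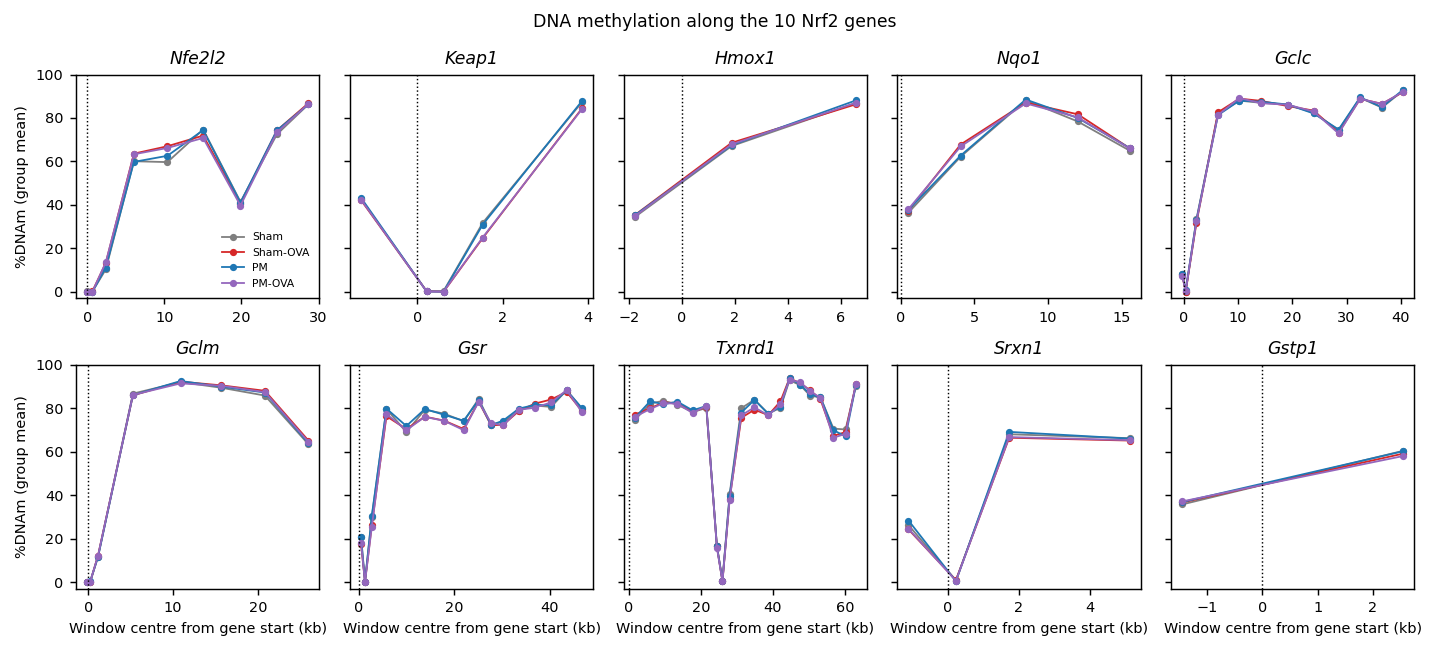
Group mean %DNAm (y axis) of each window against the distance of its centre from the gene start in kb (x axis, the dotted line marks the start), in a panel for each of the 10 genes and a line for each of the 4 groups. The 7 genes with an unmethylated window dip to under 1% at or near a start, and the group lines stay within a few points of each other.

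Hmox1, Nqo1 and Gstp1 had no window under 1%. The window that held the Hmox1 start (chr8:75089901-75093778) reached far upstream and averaged 34.4% ± 0.490 (SD, n = 7) in Sham. The Nqo1 start window (chr8:107401524-107403803) averaged 36.5% ± 1.93, and the Gstp1 start window (chr19:4037849-4041017) averaged 35.7% ± 1.35. These 3 windows had 12.9 to 21.9 CpGs per kb and mixed upstream DNA with the start, so their level is an average over unlike stretches. The Gstp1 start window also reaches Gstp2, a near-copy, and reads shared between the Gstp genes could not be separated here.

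Averaged over the windows of each gene, Sham levels ran from 32.5% ± 0.452 in Keap1 through Srxn1 (40.3% ± 0.484), Nfe2l2 (45.1% ± 0.491), Gstp1 (48.0% ± 0.777), Gclm (53.6% ± 0.411), Hmox1 (62.8% ± 0.553), Nqo1 (66.0% ± 0.984), Gsr (66.8% ± 0.348) and Gclc (67.4% ± 0.498) to 72.2% ± 0.600 in Txnrd1 (SD, n = 7). Nqo1, Gsr and Gclc had overlapping ranges and did not differ beyond their spread, whereas the other neighbours in this order did not overlap. The number of windows behind these means ran from 2 in Gstp1 to 20 in Txnrd1.

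**Figure D2:**
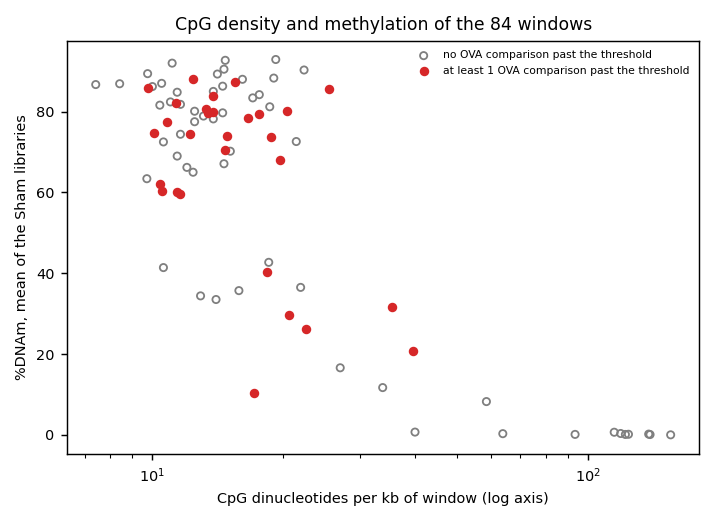
Mean %DNAm of the 7 Sham libraries (y axis) against the number of CpG dinucleotides per kb (x axis, log scale) for the 84 windows, filled where at least 1 OVA comparison passed the threshold. The windows under 1% all lie at 40.1 CpGs per kb or more and none of them is filled.

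Pairwise correlations between libraries over all windows were 0.9829 to 0.9967, and no pair was identical. The table gives no read numbers, and the sequencing depth of a window is therefore not known. One Sham library (replicate 1) had values in 1224 windows of the Y chromosome where the other 28 libraries had 29 to 46, although all animals are described as female, and counts are given with and without it. Over all tested windows the group mean was 69.1% in Sham, 68.8% in Sham-OVA, 69.4% in PM and 68.4% in PM-OVA.

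After OVA challenge, individual windows of these genes differed by a few percentage points. They did so less often than windows over the whole table, in offspring of Sham dams and of PM dams. In offspring of Sham dams 25 of the 84 windows differed (adjusted p under 0.05, limma), 10 higher and 15 lower after OVA, which is 29.8% where 35.6% of all windows differed (13.3% higher and 22.3% lower). In offspring of PM dams 21 of 84 (25%) differed, 4 higher and 17 lower, where 44.1% of all windows did (9.26% higher and 34.8% lower). No member window passed the study's size limit of 10 percentage points in either comparison, where 0.775% and 0.584% of all windows both differed and reached that size. The windows that differed did so by 1.59 to 7.27 points in offspring of Sham dams (median 3.20) and by 1.81 to 5.95 points in offspring of PM dams (median 3.52). Without Sham replicate 1 the counts were 22 and 21.

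The balance of higher and lower windows depended on how libraries were aligned. The median difference over all windows was −0.414 points after OVA in offspring of Sham dams and −1.03 in offspring of PM dams, and over the member windows it was −0.198 and −0.389. After the libraries had been shifted to a common median over windows (centred), 26 windows differed in offspring of Sham dams, 15 higher and 11 lower, and 32 in offspring of PM dams, 22 higher and 10 lower. Among these 22 were Nfe2l2 windows 1 and 2, Gclm window 2, Gsr window 2 and Keap1 window 2, all under 1% in Sham. Values there cannot fall below 0 in the shift, so such calls can follow from the floor. Of all windows, 36.9% (18.5% higher and 18.4% lower) and 42.2% (21.8% higher and 20.4% lower) differed after centring. The centred calls held 21 of the 25 and 14 of the 21 windows named first. In a homogenate, a change in methylation within cells and a change in the mix of cells cannot be told apart. Mean %DNAm over 112 windows of 20 leucocyte genes was 71.1 ± 0.457 in Sham and 68.7 ± 0.544 in Sham-OVA, and 71.4 ± 0.311 in PM and 68.6 ± 0.319 in PM-OVA. Of these windows, 74 (66.1%, 25 higher and 49 lower) and 72 (64.3%, 17 higher and 55 lower) differed after OVA without centring, where 35.6% and 44.1% of all windows did. The range of the mean did not overlap between challenged and unchallenged libraries (68.0 to 69.6 against 70.2 to 71.9). Over 157 windows of 20 genes of lung structural cells the mean was 61.8 ± 0.602 in Sham, 63.2 ± 0.666 in Sham-OVA, 62.4 ± 0.789 in PM and 62.8 ± 0.511 in PM-OVA. Of the structural windows, 81 (51.6%, 56 higher and 25 lower) and 76 (48.4%, 43 higher and 33 lower) differed after OVA, also without centring. The part of cell mix in the differences below was not tested.

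The 2 comparisons use different libraries. They had 17 differing windows in common, 68% of the list from Sham dams and 81% of the list from PM dams, 13 lower and 4 higher, and all 17 moved in the same direction. This was 20.2% of the member windows, where 27.3% of all windows differed in both comparisons, 76.7% and 62% of the lists over all windows, and 99.935% of those moved in the same direction.

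**Figure D3:**
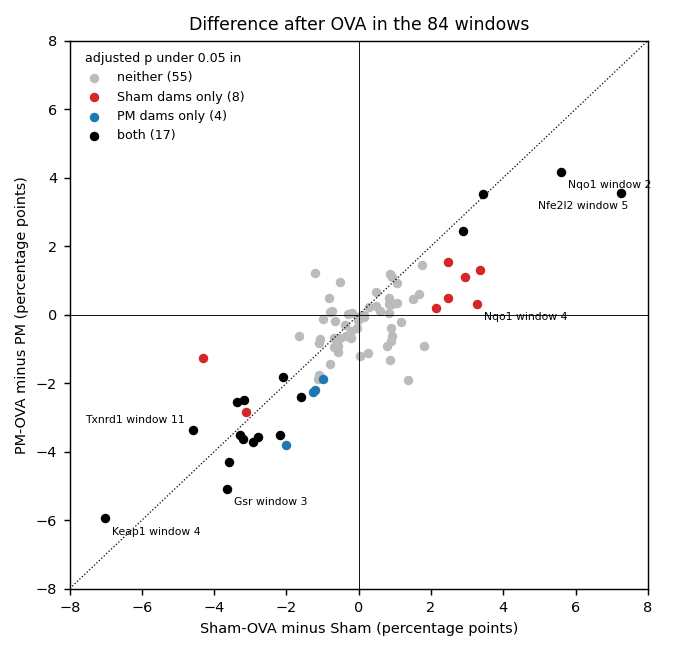
Difference in mean %DNAm after OVA, in percentage points, in offspring of Sham dams (x axis) and PM dams (y axis) for the 84 windows, coloured by the comparison in which the adjusted p was under 0.05, with the line of equal difference dotted. The 17 windows in both lists lie at the lower left and upper right, from Keap1 window 4 at −7.02 and −5.95 points to Nfe2l2 window 5 at 7.27 and 3.55.

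Keap1, the repressor of the pathway, had the largest fall. Its window 4 (chr9:21237127-21238534), which starts 827 bp into the gene, is annotated as exon throughout in at least 1 transcript and flanks the unmethylated start, ranged from 30.2% to 36.0% in the 7 Sham libraries (median 30.8%) and from 23.1% to 26.1% in the 7 Sham-OVA libraries (median 25%). The groups did not overlap. The highest Sham value belonged to replicate 1, the library with Y-chromosome values. The mean went from 31.7% ± 2.09 to 24.7% ± 1.25, and fell by 7.02 points (95% interval −9.46 to −4.58, log2 ratio −0.49 ± 0.0862 SE, adjusted p = 7.29e-05). After PM exposure of the dam it went from 30.9% ± 2.13 to 25% ± 3.24, by −5.95 points (adjusted p = 0.000194), and here the ranges of 27.1% to 33.2% and 19.7% to 30.7% overlapped. Keap1 window 5, further into the gene, also fell in both, from a Sham mean of 87.4%, by −2.94 and −3.73 points. After centring, 2 windows of Keap1 were lower in offspring of Sham dams, and 2 were lower and 2 higher in offspring of PM dams. Window 2, near 0 %DNAm, was 1 of the higher ones. Between windows 4 and 5 and the upstream window 1 (chr9:21239336-21242031, 42.7% ± 1.48 in Sham, differences of −0.587 and −0.925 points, adjusted p = 0.563 and 0.298), windows 2 and 3 stayed near 0.

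Nfe2l2, the transcription factor gene itself, had the largest rise in offspring of Sham dams. Its window 5 (chr2:75692087-75696395), 8246 to 12554 bp downstream of the start and almost wholly intronic, with 286 of 4309 bp annotated as exon, ranged from 57.3% to 64.3% in Sham (median 60.2%) and from 63.5% to 70.5% in Sham-OVA (median 67.2%). The ranges overlapped through 1 Sham library, replicate 4 at 64.3%. The mean went from 59.7% ± 2.41 to 67.0% ± 2.58, a rise of 7.27 points (95% interval 5.08 to 9.46, log2 ratio 0.44 ± 0.0688 SE, adjusted p = 1.42e-05), the smallest adjusted p of the 84 windows in this comparison. From PM to PM-OVA it went from 62.6% ± 1.33 to 66.2% ± 1.84, a rise of 3.55 points (95% interval 1.43 to 5.67, adjusted p = 0.00895). Windows 3 and 4, upstream of it within the gene, also rose in both comparisons, by 2.44 to 3.51 points, and window 6 fell, by −2.79 and −3.56 points. The start window of Nfe2l2 (chr2:75704234-75705017) overlaps the transcript E030042O20Rik and held the element printed above. It was at 0.296% ± 0.392 in Sham and 0.118% ± 0.103 in Sham-OVA (adjusted p = 0.270), and at 0.0458% ± 0.0875 and 0.0969% ± 0.183 in PM and PM-OVA (adjusted p = 0.712). After centring the latter difference passed (0.540 points higher, adjusted p = 0.0120), and 6 windows of Nfe2l2, 5 higher and 1 lower, differed in each comparison where 4 had. The windows added included window 2, also near 0 %DNAm, in both comparisons.

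**Figure D4:**
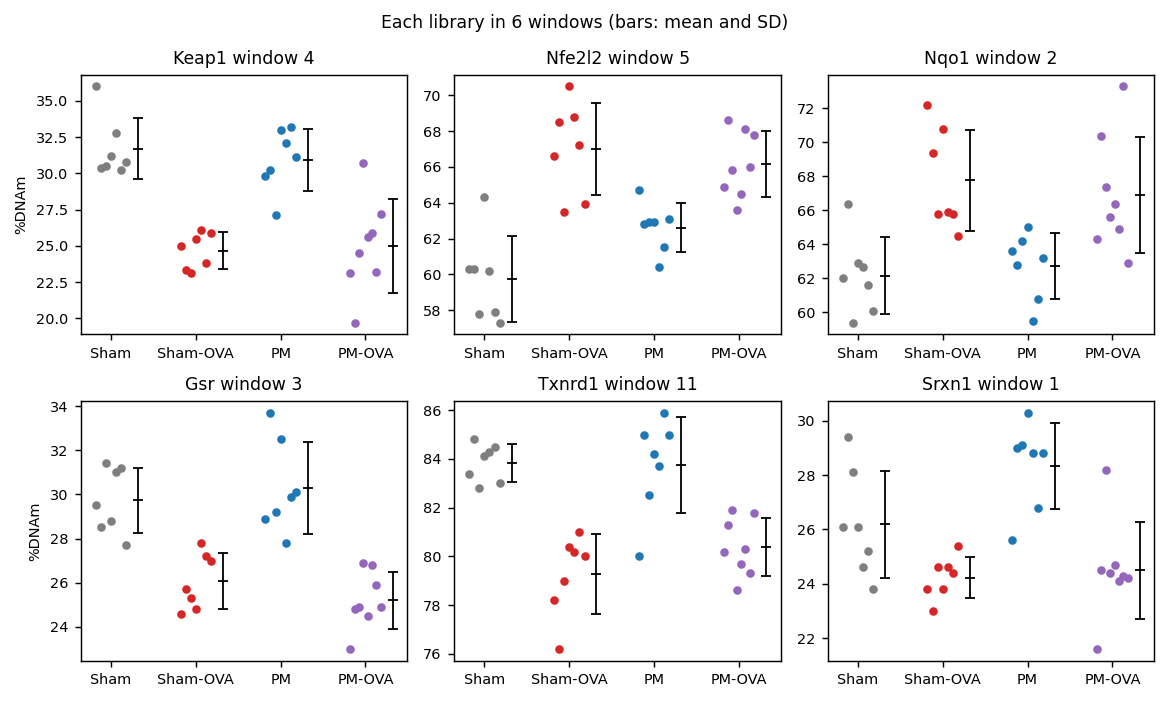
%DNAm (y axis) of every library in 6 windows, by group (x axis), with the mean and SD of each group as a bar beside the points. In Keap1 window 4 the 7 Sham-OVA libraries (23.1% to 26.1%) lie below the 7 Sham libraries (30.2% to 36.0%), and in Nfe2l2 window 5 the order is reversed with 1 Sham library inside the Sham-OVA range.

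Among the glutathione genes, Gsr had windows past the threshold and Gclc had none. Gsr, glutathione reductase, had 7 of 16 windows differing in offspring of Sham dams, 1 higher and 6 lower, and 6 of 16 in offspring of PM dams, all lower. Over all windows 35.6% and 44.1% differed, and the Gsr counts lie near these shares. With the libraries centred the counts were 6 (1 higher, 5 lower) and 7 (3 higher, 4 lower). The 6 lower windows in offspring of Sham dams lay among the first 8. Gsr window 3 (chr8:33653978-33656399), in intronic sequence just past the unmethylated window, ranged from 27.8% to 33.7% in PM (median 29.9%) and from 23.0% to 26.9% in PM-OVA (median 24.9%), with no overlap. Its mean went from 30.3% ± 2.10 to 25.2% ± 1.31, and fell by 5.10 points (log2 ratio −0.36 ± 0.0574 SE, adjusted p = 1.65e-05), the smallest adjusted p of the 84 windows in offspring of PM dams. In offspring of Sham dams it went from 29.7% ± 1.5 to 26.1% ± 1.25, by −3.66 points (adjusted p = 0.00134), and the ranges of 27.7% to 31.4% and 24.6% to 27.8% touched.

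The Gsr start window (chr8:33652314-33653574) went from 20.8% ± 1.99 to 17.6% ± 1.67 in offspring of Sham dams (−3.17 points, adjusted p = 0.0133). From PM to PM-OVA it went from 20.5% ± 1.86 to 18% ± 2.02 (−2.50 points, adjusted p = 0.0332). The second call was lost with the libraries centred (−1.52 points, adjusted p = 0.210) and without any 1 of PM-OVA replicates 1, 2 and 8 and PM replicates 1, 2, 3 and 7, where the adjusted p was 0.0502 to 0.0854.

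Gclc, the catalytic subunit of the glutathione-synthesis ligase, had 0 of 12 windows past the threshold in either comparison, with 1 of 12 at an unadjusted p under 0.05 in each. Its differences were −1.65 to 1.74 points in offspring of Sham dams and −1.77 to 1.45 in offspring of PM dams. With the libraries centred, 1 and 3 windows were higher. Its start window (chr9:77753856-77754709) was at 8.24% ± 0.533 in Sham and 7.89% ± 1.25 in Sham-OVA, and at 8.02% ± 0.764 in PM and 7.40% ± 0.673 in PM-OVA (adjusted p = 0.497 and 0.220). The Gclc window with the largest mean difference, window 11 (chr9:77788842-77793237), was at 84.8% ± 1.70 and 86.5% ± 1.20, and at 85.0% ± 0.811 and 86.5% ± 1.63 (adjusted p = 0.0657 and 0.0827), and passed with the libraries centred (2.14 points, adjusted p = 0.0162, and 2.43 points, adjusted p = 0.00359). It also passed in offspring of Sham dams without Sham replicate 2 or 3 or PM-OVA replicate 8 (adjusted p = 0.0222 to 0.0468) and in offspring of PM dams without PM-OVA replicate 8 (adjusted p = 0.0204).

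Gclm, the modifier subunit, had 1 of 8 windows higher in offspring of Sham dams and 0 of 8 past the threshold in offspring of PM dams. After centring, 2 and 3 windows were higher. The window called in offspring of Sham dams was window 7 (chr3:122263836-122268948), in which 3153 of 5113 bp are exonic and which overlaps the gene model Gm17494, at 85.8% ± 1.36 in Sham and 88.0% ± 1.65 in Sham-OVA (2.15 points higher, adjusted p = 0.0207). The call was lost without Sham-OVA replicate 6 (1.72 points, adjusted p = 0.0657). In offspring of PM dams it was at 87.2% ± 1.16 and 87.4% ± 1.34 (adjusted p = 0.836). The Gclm start window (chr3:122245291-122245612), the densest of the 84, read 0 in 6 of 7 Sham libraries and 0.0556% in the other, and 0.0714% to 0.276% in Sham-OVA. Although these ranges did not overlap, the difference of 0.134 points did not pass (adjusted p = 0.323), but it did when only the Sham and Sham-OVA libraries were fitted (adjusted p = 0.0104).

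Gstp1, a glutathione transferase, had 1 of 2 windows differing, in offspring of PM dams. Window 2 (chr19:4033056-4037815) went from 60.2% ± 1.91 in PM to 58.0% ± 1.27 in PM-OVA (−2.27 points, adjusted p = 0.0220), and from 60.4% ± 1.36 in Sham to 59.1% ± 0.919 in Sham-OVA (adjusted p = 0.237). The call was lost with the libraries centred (−1.29 points, adjusted p = 0.161) and without PM-OVA replicate 2 or PM replicate 1 or 4 (adjusted p = 0.0513 to 0.0719). The start window stood at 36.6% ± 1.68 in Sham-OVA, 36.8% ± 1.35 in PM and 37.1% ± 1.16 in PM-OVA, beside 35.7% in Sham (adjusted p = 0.389 and 0.768 for OVA). Of 4 windows of the near-copies Gstp2 and Gstp3, 2 differed in each comparison.

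Both thioredoxin-system genes had windows that fell in each comparison, none of them in their unmethylated starts. Txnrd1, thioredoxin reductase, had 8 of 20 windows differing in offspring of Sham dams, 3 higher and 5 lower, and 4 of 20 in offspring of PM dams, all lower. Over all windows 35.6% and 44.1% differed, so the first count is near that share and the second is below it. With the libraries centred the counts were 6 (3 higher, 3 lower) and 6 (4 higher, 2 lower). Window 11 (chr10:82867000-82870683), intronic and overlapping Eid3, ranged from 82.8% to 84.8% in Sham (median 84.1%) and from 76.2% to 81.0% in Sham-OVA (median 80.0%), with no overlap. The mean went from 83.9% ± 0.780 to 79.3% ± 1.63, and fell by 4.58 points (log2 ratio −0.42 ± 0.0710 SE, adjusted p = 4.29e-05). In offspring of PM dams it went from 83.8% ± 1.97 to 80.4% ± 1.21, by −3.37 points (adjusted p = 0.000441), where the lowest PM library, replicate 1 at 80.0%, lay inside the PM-OVA range of 78.6% to 81.9%.

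The window at the first annotated Txnrd1 start (chr10:82833551-82837644) was methylated, at 74.5% ± 2.26 in Sham and 77% ± 1.48 in Sham-OVA (2.47 points higher, adjusted p = 0.0341). This call was lost when only the Sham and Sham-OVA libraries were fitted (adjusted p = 0.0750) and without any 1 of Sham-OVA replicates 1, 2, 4 and 6 and Sham replicates 3, 4, 5, 6 and 7 (adjusted p = 0.0527 to 0.0788). In PM and PM-OVA it was at 75.5% ± 1.37 and 76.0% ± 1.42 (adjusted p = 0.679). Another 3 coding starts lie in window 7, at 16.6% in Sham, next to the unmethylated window 8, and neither window passed the test.

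Srxn1, sulfiredoxin, which repairs over-oxidised peroxiredoxins, had 1 of 4 windows differing in offspring of Sham dams and 2 of 4 in offspring of PM dams, all lower. With the libraries centred the counts were 0 and 2 (1 higher, 1 lower). Window 1 (chr2:152103294-152105516), the 2223 bp up to the annotated gene start with 2 of the element matches, ranged from 25.6% to 30.3% in PM (median 28.8%) and from 21.6% to 28.2% in PM-OVA (median 24.4%). All PM-OVA libraries but replicate 3 lay below the lowest PM library. The mean went from 28.3% ± 1.58 to 24.5% ± 1.79, and fell by 3.82 points (log2 ratio −0.28 ± 0.0610 SE, adjusted p = 0.000614). In offspring of Sham dams it was at 26.2% ± 1.97 and 24.2% ± 0.770 (−2.0 points, adjusted p = 0.0710), which passed without Sham replicate 7 or PM-OVA replicate 3 (adjusted p = 0.0335 and 0.0473). The OVA effects of the 2 kinds of offspring differed by −1.82 points (95% interval −4.21 to 0.559) and did not pass (adjusted p = 0.752).

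Of the haem and quinone enzymes, Nqo1 had windows past the threshold and Hmox1 had none. Nqo1, NAD(P)H quinone dehydrogenase, had 2 of 5 windows higher in offspring of Sham dams, and 1 higher and 1 lower in offspring of PM dams. After centring the counts were 2 higher and 1 higher, and the lower window no longer passed. Window 2 (chr8:107396725-107401523), intronic and just past the start window, ranged from 59.4% to 66.4% in Sham (median 62.0%) and from 64.5% to 72.2% in Sham-OVA (median 65.9%). The mean went from 62.2% ± 2.28 to 67.8% ± 3.00, a rise of 5.60 points (log2 ratio 0.35 ± 0.0906 SE, adjusted p = 0.00345). From PM to PM-OVA it went from 62.7% ± 1.95 to 66.9% ± 3.41, by 4.18 points (adjusted p = 0.0163), the largest rise of the 84 windows in this comparison. The ranges overlapped in both comparisons. The start window stood at 37.4% ± 1.88 in Sham-OVA, 37.8% ± 0.802 in PM and 38.1% ± 0.971 in PM-OVA (adjusted p = 0.453 and 0.783 for OVA).

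Hmox1, haem oxygenase 1, had 0 of 3 windows past the threshold in either comparison, and 1 of 3 at an unadjusted p under 0.05 in each. Its start window was at 35.3% ± 0.674 in Sham-OVA, 35.2% ± 0.591 in PM and 34.8% ± 1.12 in PM-OVA (adjusted p = 0.233 and 0.586). Window 2 (chr8:75093779-75097214), which covers the first part of the gene, was at 67.1% ± 1.05 in Sham and 68.6% ± 1.44 in Sham-OVA (1.5 points, adjusted p = 0.0951), and passed with the libraries centred (1.89 points, adjusted p = 0.0165). In PM and PM-OVA it was at 67.5% ± 1.03 and 67.9% ± 1.08 (adjusted p = 0.614).

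None of the 10 windows under 1% differed after OVA in either comparison, and their largest difference in any comparison of groups was 0.611 points. Over the whole table, 9.36% and 7.97% of the 10797 windows under 1% in Sham differed. Centring shifted all windows of a library by 1 value, with results below 0 set to 0, so that windows near 0 were not shifted equally in all libraries. With centring some of these windows passed, such as Keap1 window 2 in offspring of PM dams (0.580 points higher, adjusted p = 0.00473). Of the 10 windows that hold an annotated gene start, 2 differed in each comparison (20%), where 28.7% and 38.0% of the 33550 start windows of all genes did.

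Maternal PM exposure left no detectable difference in these genes at the precision of the libraries. Between PM and Sham 0 of 84 windows passed (0% of all windows), with 8 at an unadjusted p under 0.05 (limma), 6 higher and 2 lower, against 5.79% of all windows. Between PM-OVA and Sham-OVA 0 of 84 passed (0% of all windows), with 3 at an unadjusted p under 0.05, all lower, against 5.96% of all windows. Whatever their p, 64.8% of all windows were higher in PM than in Sham, and 33.2% were higher in PM-OVA than in Sham-OVA. The directions of the member windows thus follow those of the whole table. In the member windows the 95% intervals of the differences lay between −5.54 and 5.07 points without OVA and between −3.69 and 4.03 with OVA. They stayed within 5 points of 0 in 81 and in 84 of the windows, and within 10 points in all 84 in both comparisons. The counts were 0 without Sham replicate 1 as well.

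The member window with the smallest p between PM and Sham was Txnrd1 window 19 (chr10:82892478-82895790), an intronic window that ranged from 68.7% to 73.3% in Sham (median 69.4%) and from 65.6% to 69.5% in PM (median 66.7%). The means were 70.2% ± 1.84 and 67.0% ± 1.52, a difference of −3.19 points (95% interval −5.54 to −0.851, adjusted p = 0.829). With OVA the same window was at 69.0% ± 2.72 and 68.2% ± 2.59 (adjusted p = 0.950). Between PM-OVA and Sham-OVA the smallest p was in Nfe2l2 window 2 (chr2:75703699-75704233), in the unmethylated stretch, where 0.250% ± 0.297 in Sham-OVA and 0.0352% ± 0.0536 in PM-OVA differed by −0.215 points (adjusted p = 0.816). Before challenge, the PM and Sham means of the main OVA windows differed by −0.759 points in Keap1 window 4 (95% interval −3.20 to 1.68), 0.566 in Gsr window 3 and 2.88 in Nfe2l2 window 5 (95% interval 0.690 to 5.07, adjusted p = 0.838).

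**Figure D5:**
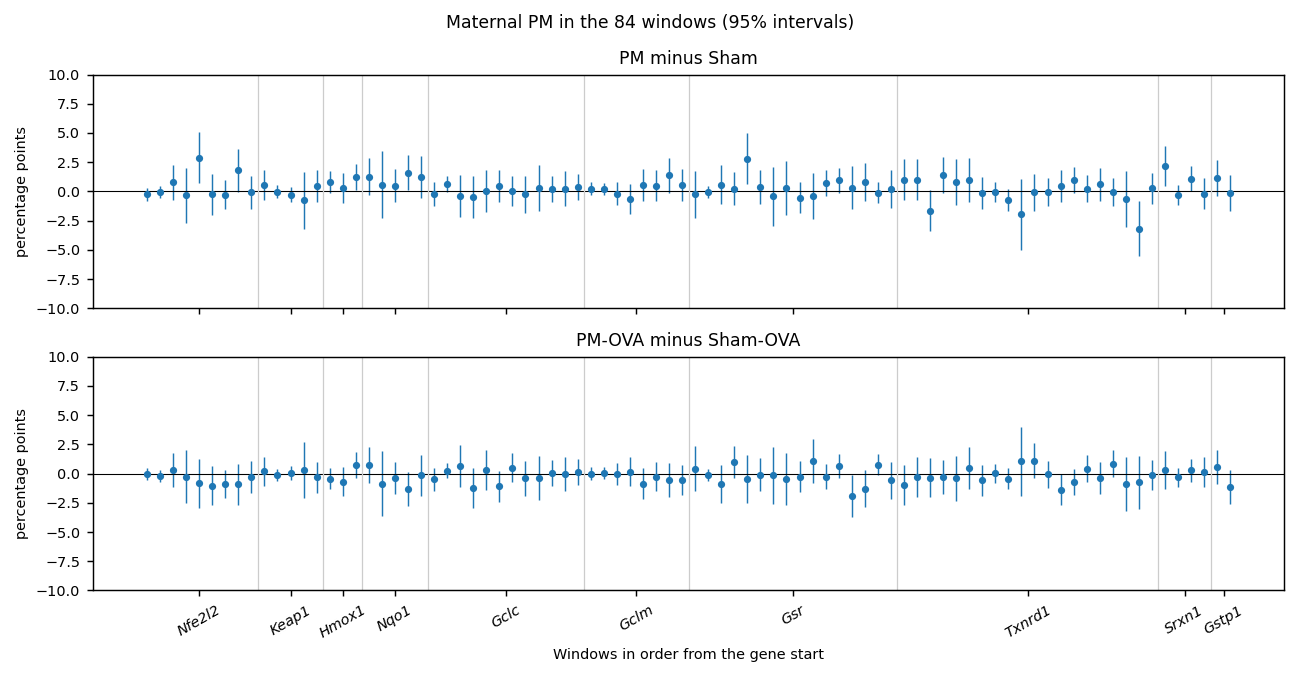
Difference in mean %DNAm between offspring of PM and Sham dams, in percentage points (y axis) with 95% intervals from limma on the percentages, for the 84 windows in order along each gene (x axis), without OVA (top) and with OVA (bottom). The differences lie between −3.19 and 2.88 points in the upper panel and between −1.90 and 1.11 in the lower one.

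Whether the response to OVA depended on the dam was tested as the difference of the 2 OVA effects. It passed in 0 of 84 windows (0% of all windows), with 5 at an unadjusted p under 0.05 (limma), all lower in offspring of PM dams, against 7.40% of all windows. Whatever their p, only 28.4% of all windows were higher in this difference. The smallest p of the 84 was in Nqo1 window 4 (chr8:107389668-107392682), which ranged from 76.0% to 80.7% in Sham (median 78.0%) and from 80.3% to 83.2% in Sham-OVA (median 81.6%). It ranged from 78.9% to 82.3% in PM (median 79.8%) and from 78.0% to 82.9% in PM-OVA (median 80.4%). The OVA difference was 3.26 points (adjusted p = 0.00116) in offspring of Sham dams and 0.320 points (adjusted p = 0.734) in offspring of PM dams, and the difference between them of −2.94 points (95% interval −5.0 to −0.870) did not pass (adjusted p = 0.582). In Nfe2l2 window 5 it was −3.72 points (95% interval −6.77 to −0.671, adjusted p = 0.641), and in Keap1 window 4 it was 1.07 points (95% interval −2.32 to 4.46, adjusted p = 0.920). Calls made in offspring of Sham dams alone or PM dams alone were therefore not shown to differ between dams.

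Other genes of the pathway were described by counts. Of 182 windows of 11 regulators, among them Bach1 and Bach2, which compete with Nrf2 for its sites, Cul3, the scaffold of the Keap1 ubiquitin ligase, and the small Maf partners, 82 differed in offspring of Sham dams (31 higher, 51 lower, 45.1%) and 91 in offspring of PM dams (25 higher, 66 lower, 50%), where 35.6% and 44.1% of all windows differed. In each comparison 8 of these windows passed 10 points, with differences of −19.0 to 15.9 and −18.2 to 13.9 points, a size that none of the 84 windows of the 10 genes reached and that, with the adjusted p, 0.775% and 0.584% of all windows did. Of 194 windows of 12 further glutathione genes, 76 (39.2%, 26 higher and 50 lower) and 97 (50%, 18 higher and 79 lower) differed, 3 of them by 10 points or more in offspring of Sham dams and 0 in offspring of PM dams. Of 58 windows of 9 further thioredoxin and peroxide genes, 14 (24.1%) differed in each comparison, 11 higher and 3 lower, and 9 higher and 5 lower. Of 51 windows of 5 NADPH-supplying genes, 18 (35.3%, 3 higher and 15 lower) and 23 (45.1%, 3 higher and 20 lower) differed. Of 55 windows of 11 haem, iron and quinone genes, 14 (25.5%, 6 higher and 8 lower) and 20 (36.4%, 3 higher and 17 lower) differed. No window of these lists passed between PM and Sham dams, with or without OVA, or in the difference of OVA effects.

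The windows of other genes whose values were most like Keap1 window 4 over the 29 libraries lay in Fam149b (chr14:20376995-20380694, Pearson r = 0.908), Adgrl3 (chr5:81436234-81443849, r = 0.908) and Rnf213 (chr11:119434518-119437673, r = 0.906). All 3 were lower in both challenged groups. The Fam149b window averaged 64.3% in Sham and 56.0% in Sham-OVA, and 63.5% in PM and 55.7% in PM-OVA. These correlations span all 4 groups, so they include the difference between challenged and unchallenged libraries.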

How the data were processed

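Whole-genome enzymatic methyl sequencing was measured by the study in 29 lung libraries (Sham 7, Sham-OVA 7, PM 7, PM-OVA 8), grouped by their titles. According to the methods and the labels, the authors trimmed the reads with Trim Galore, mapped and called methylation with DRAGEN against GRCm38, and binned the calls in SeqMonk, and the deposited values are the percent of methylated calls per window and library, for windows that overlap an Ensembl gene. No normalization between libraries is stated. Counts were not used here. The methods state a genome coverage per library and a minimum of informative CpGs per window, but the depth behind a single window value, and with it its counting error, is unknown, and the study's count test (edgeR) could not be run on percentages.

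Windows with at least 3 values in each group were tested with limma 3.58.1 (R 4.3.3) on log2((percent + 1)/(101 − percent)), 1 fit over the 4 groups, two-sided, with Benjamini-Hochberg adjustment over all 259167 tested windows. A window differed at an adjusted p under 0.05. Differences are given in percentage points of the group means, log2 ratios with SE are those of the fit, and 95% intervals come from limma on the untransformed percentages. The scripts were tested on simulated data. Gene-level means and likeness are descriptions without a test. Windows given in full are those at each gene start, the window of each gene with the largest mean OVA difference and those with the smallest p in each of the 5 comparisons. The genes and lists were chosen with earlier results of these data known. Gene positions came from GENCODE M21, promoters from RefSeq (GRCm38.p6) and CpG counts from the GRCm38 sequence (pysam 0.24.0). Alternatives were other scales, offsets, filters, thresholds, library centring, a replicate block, only the compared groups, and leaving out each library.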

Additional observations from a re-analysis of the deposited data

Results flagged for a closer look

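Of 88 groups of libraries in the 22 windows given in full, 9 (10.2%) had 1 library whose gap to the nearest other was large for the range of its group. For values without a floor chance gives about 1 in 20, a rate that does not apply to the 5 of the 9 in which another library read 0, so no excess over chance is shown. In all 9 it was the highest library. In Nfe2l2 window 5, Sham replicate 4 was at 64.3% where the other Sham libraries lay between 57.3% and 60.3%. In Nfe2l2 window 2 the same library was at 0.424% (others 0 to 0.139%). In Nfe2l2 window 1, PM replicate 4 was at 0.229% (others 0 to 0.0918%) and PM-OVA replicate 2 at 0.515% (others 0 to 0.202%). In Gclm window 1, Sham replicate 7 was at 0.0556% (others 0) and PM-OVA replicate 6 at 1.10% (others 0 to 0.0833%). In Srxn1 window 1, PM-OVA replicate 3 was at 28.2% (others 21.6% to 24.7%). In Nqo1 window 1, PM-OVA replicate 1 was at 40.1% (others 37.1% to 38.5%). In Gclc window 1, Sham-OVA replicate 5 was at 10.5% (others 6.35% to 7.93%).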

How the results depend on the processing

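The counts of differing windows, 25 after OVA in offspring of Sham dams and 21 in offspring of PM dams, were 26 and 23 on untransformed percentages, 25 and 22 with an offset of 5 points, 25 and 21 with windows valued in all 29 libraries, and 22 and 22 with only the groups compared. Centring the libraries gave 26 and 32. An adjusted p under 1e-06 left 0 and 0, a minimum of 10 points 0 and 0, and a minimum of 5 points 3 and 2. By construction a stricter threshold can only lower the counts. The share of all windows is given above for 10 points but is not available for 1e-06 and for 5 points. Leaving out each library in turn gave 20 to 26 (lowest without Sham-OVA replicate 1, 2, 4 or 6) and 19 to 23 (lowest without PM-OVA replicate 2 or PM replicate 1). The comparisons of PM with Sham dams and the difference of OVA effects gave 0 under every alternative run for them. The fit of only the groups compared was not run for the difference of OVA effects, which needs all 4 groups. With the replicate number as a block (replicate block) the counts were 24 and 22, of which 23 and 20 were among the windows called without it. Among the windows given in full, the block ended the call of Gsr window 1 in offspring of PM dams (−2.50 points, adjusted p = 0.0848, limma) and brought Gclc window 11 past the threshold (adjusted p = 0.0420 in offspring of Sham dams and 0.0196 in offspring of PM dams). Same-numbered libraries of different groups did not deviate together (42 pairs, r −0.0409 to 0.104, median 0.0141, 1 pair over 0.1), so the numbers were not taken to pair animals. These are the replicate numbers of the titles. Some library names carry other numbers, and pairing or order by those names was not checked. Among the windows given in full, 1 reversed its direction, Nfe2l2 window 2 after OVA in offspring of PM dams, from −0.0150 to 0.478 points with the libraries centred, near 0 %DNAm. The unknown depth of single windows limits all values near 0, where a few calls can set a library's value.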
